A study of Mus musculus with 10 samples.

Results

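Respiratory complex I, the NADH:ubiquinone oxidoreductase of the inner mitochondrial membrane, was examined through its transcripts in tumor-draining lymph nodes (TDLNs). Members were the protein-coding genes whose symbol begins with Nduf or mt-Nd, and 53 of 33585 genes met this. They comprised 7 mitochondrially encoded core subunits, 7 nuclear core subunits, 29 nuclear accessory subunits, 8 Ndufaf assembly factors, and Ndufa4 and Ndufa4l2, which carry the family symbol although the Ndufa4 protein is now counted as a subunit of complex IV. With a filter of a mean of 1 FPKM (fragments per kilobase of transcript scaled to mapped fragments, a level corrected for gene length and depth), 52 members were tested and Ndufa4l2 was not.

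The nodes came from female wild-type BALB/c mice, 6 weeks old at the start, in which the fourth mammary fat pad on the right had received 4T1 cells, a mouse mammary carcinoma line. Tumors of both groups were treated by microwave ablation (MWA) on day 10, and nodes were collected on day 15. The MWA group, which per the study's methods was given PBS, had 5 libraries from 5 mice. The MWA+2DG group, also 5 mice, was injected with 2-deoxy-D-glucose (2DG), a glucose analog that blocks an early step of glycolysis, at 500 mg/kg every 2 days from the day of ablation. There was no unablated or 2DG-only group among these 10 libraries, so both groups carried the tumor and the ablation.

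Complex I takes electrons from NADH, hands them through a flavin and a chain of iron-sulfur clusters to ubiquinone, and pumps protons, so that it couples the oxidation of fuels to ATP synthesis. Its hydrophilic arm is built on nuclear core subunits and its membrane arm on subunits that the mitochondrial genome encodes. Accessory subunits, all of nuclear origin, surround this core, and assembly factors help to build the complex but are absent from the finished enzyme. Lymphocytes draw on both glycolysis and respiration, and the comparison asked whether complex I transcripts differed in nodes of mice in which glycolysis was inhibited.

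The libraries were those of a lymph node. Summed FPKM of the 8 B cell markers lay between 1432 and 1739, and that of the 10 T cell markers between 461.4 and 700.4. Total FPKM ranged from 312143 to 359984 and the share from mitochondrially encoded genes from 4.67% to 6.98%. Replicate 5 of the MWA group had both the highest total and the lowest mitochondrial share. Liver transcripts, which a node should lack, separated the libraries by replicate number in both groups: Alb was at most 0.049 FPKM in replicates 1 and 2 and between 35.1 and 101.9 FPKM in replicates 3 to 5. Between these replicate sets 488 of the 13334 genes tested differed at an adjusted p below 0.05 (limma, Benjamini-Hochberg). Of the 52 members tested, 0 were among them, and with so small a share of all genes this does not set the members apart. Fat transcripts were also present and uneven: the summed FPKM of 10 adipose markers ran from 5.21 to 19.4 in MWA and from 6.64 to 99.8 in MWA+2DG, with Cfd at 55.0, Fabp4 at 17.4 and Adipoq at 10.9 FPKM in MWA+2DG replicate 5. The brown fat gene Ucp1 stayed at or below 0.035 FPKM. Of 10 skeletal muscle markers, whose sum lay between 7.24 and 9.74 FPKM in all libraries, Myh1, Myh2, Myh4 and Tnnc2 were below 0.1 FPKM, while Mylpf was between 4.80 and 6.77 and Tnni2 between 1.49 and 3.40 FPKM.

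Complex I transcripts of MWA+2DG nodes lay within a narrow range of those of MWA nodes. With limma on log2(FPKM + 1), 0 of 52 members passed an adjusted p of 0.05, against 0% of the 13334 genes tested, and the adjusted p of the members was 0.995 or higher. At an unadjusted P below 0.05, 0 members were higher (1.63% of all genes) and 0 were lower (2.62% of all genes). By the rule of the study (P below 0.05 and a log2 fold change beyond 0.25) 0 members were higher and 0 were lower, beside 0.952% and 1.87% of all genes. Groups did not overlap for 0 members and for 0.802% of all genes. The exact two-sided permutation test over mice, whose smallest possible p here is 0.00794, gave 1 of 53 members a p below 0.05, the assembly factor Ndufaf8, compared to 4.48% of all genes tested. The 95% interval of the log2 fold change held 0 in 52 of 52 members. All these intervals lay between -0.57 and 0.42 on the log2(FPKM + 1) scale. On that scale the intervals of all 44 nuclear and 7 mitochondrially encoded complex I members left out 0.58 (1.5-fold) in either direction. With 0.1 added to FPKM in place of 1, Ndufb8 was at -0.22 ± 0.18 (SE) and Ndufa12 at -0.27 ± 0.15. The limit thus holds for log2(FPKM + 1) and was not shown for fold changes of FPKM itself. In bulk nodes a change in the number of cells of one type and a change in RNA per cell cannot be told apart.

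**Figure D1:**
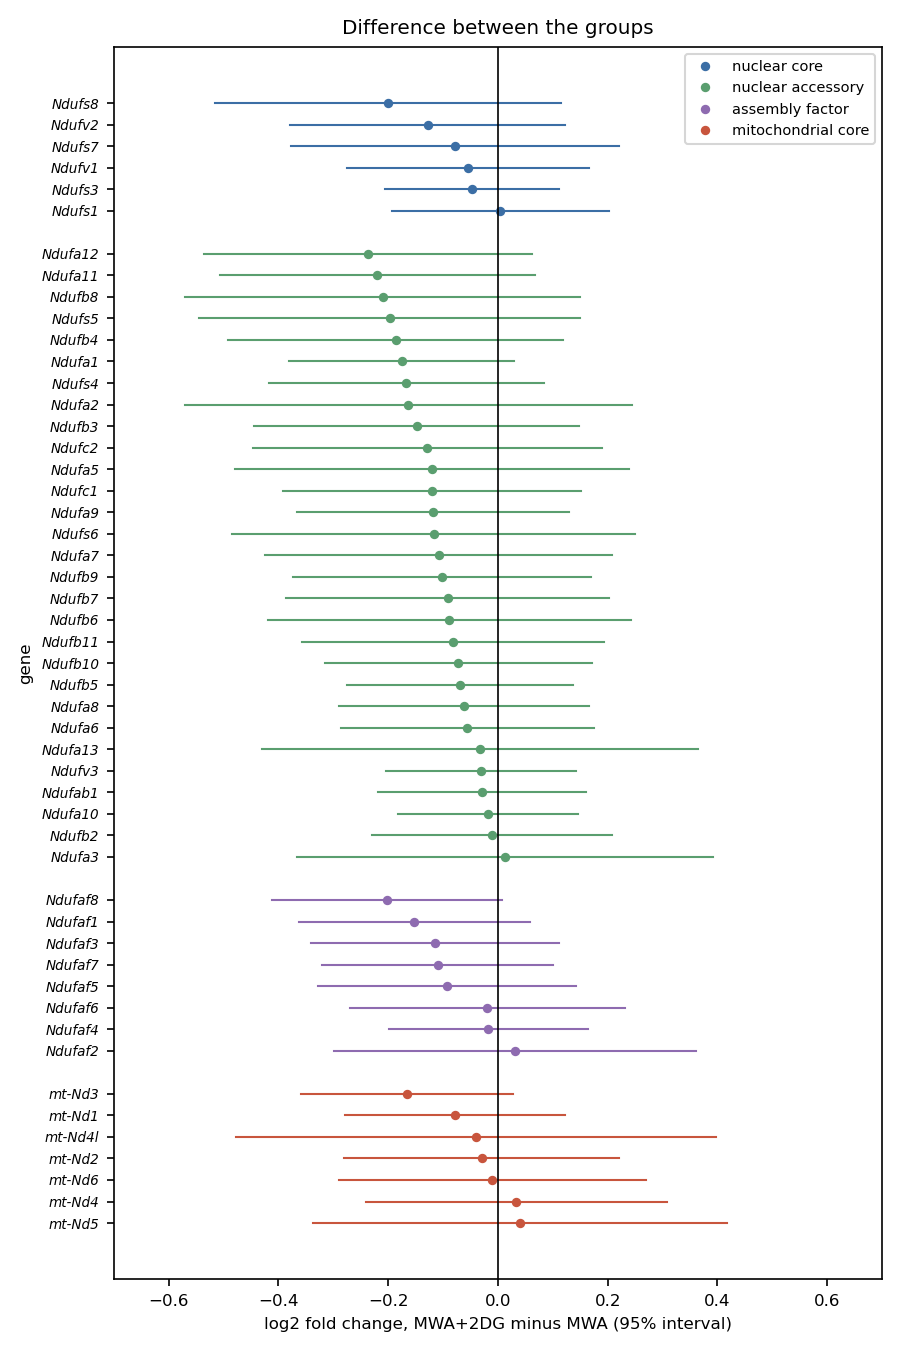
Log2 fold change of log2(FPKM + 1), MWA+2DG minus MWA, on the x axis for complex I genes tested (y axis), with its 95% interval from limma; n = 5 libraries per group. Points lie between -0.24 and 0.04 and each interval shown crosses 0, with most nuclear genes left of 0.

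Within this range the nuclear genes leaned one way. The fitted log2 fold change was below 0 in 41 of 44 nuclear members of complex I, compared to 47.4% of all genes, and their median was -0.10 against 0.01 over all genes. The medians were -0.08 for the 7 nuclear core subunits, -0.11 for the 29 accessory subunits and -0.10 for the 8 assembly factors. Of the 7 mitochondrially encoded subunits 5 were below 0, with a median of -0.03. The count of nuclear members rested on one library: without MWA replicate 5 it was 27 of 44, while 52.9% of all genes were then below 0, and the median of the accessory subunits became -0.001. When each library was rescaled to the same total FPKM, the median of all genes rose to 0.07, 30 of 44 nuclear members were below 0 beside 30.1% of all genes, and the median of the mitochondrially encoded subunits was 0.03.

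The 7 nuclear core subunits carry the flavin and the iron-sulfur clusters. Ndufs1, the large iron-sulfur subunit of the NADH-oxidizing tip, had the lowest level among them, at 8.23 FPKM over the 10 libraries. Ndufs8, which holds a pair of iron-sulfur clusters, had the largest fitted difference of the 7. Its FPKM was 41.5, 43.7, 37.9, 36.2 and 65.65 in MWA replicates 1 to 5 and 35.5, 41.5, 37.6, 39.7 and 36.5 in MWA+2DG replicates 1 to 5. The groups overlapped, and 65.65 FPKM in MWA replicate 5 stood well above the other 9 libraries. The log2 fold change of Ndufs8 was -0.20 ± 0.14 (SE; exact p = 0.214), and without that library it was -0.06.

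Other nuclear core subunits differed less. Ndufv2, an iron-sulfur subunit, was at 30.6 ± 5.70 FPKM (SD, n = 5) in MWA and 27.6 ± 1.64 FPKM in MWA+2DG, and Ndufv1, which binds NADH and the flavin, was at 30.2 ± 4.17 and 28.9 ± 1.68 FPKM. Ndufs7, which borders the ubiquinone site, was at 29.55 ± 6.31 and 27.6 ± 2.96 FPKM, and Ndufs3, a scaffold of the ubiquinone module, at 26.0 ± 2.24 and 25.1 ± 0.884 FPKM. For these genes the difference between groups was smaller than the SD of the MWA group. Ndufs1 was the exception in direction, at 8.46, 8.84, 7.60, 9.16 and 7.04 FPKM in MWA and 9.48, 8.35, 8.24, 7.96 and 7.19 FPKM in MWA+2DG. It was also the core subunit that was lowest, rather than highest, in MWA replicate 5, and its log2 fold change was 0.004 ± 0.09 (SE).

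Accessory subunits spanned levels from Ndufa2, a thioredoxin-like subunit at 75.0 FPKM, to Ndufb2 of the membrane arm at 3.17 FPKM. Ndufa2 was at 92.1, 77.5, 64.1, 52.2 and 117.7 FPKM in MWA and 64.4, 74.8, 74.4, 69.0 and 64.2 FPKM in MWA+2DG. The 5 MWA libraries thus enclosed the whole range of the MWA+2DG libraries, and the SD was 25.5 FPKM in MWA and 5.15 FPKM in MWA+2DG. A wider spread in MWA held for 40 of 44 nuclear members, compared to 60.3% of all genes, and for 2 of 7 mitochondrially encoded members. Ndufb2 was nearly equal in both groups, at 3.196 ± 0.540 and 3.147 ± 0.325 FPKM (SD, n = 5).

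The 3 accessory subunits with the lowest fold changes were Ndufa12, Ndufa11 and Ndufb8. Ndufa12, which sits in the hydrophilic arm, was at 9.001, 8.32, 6.84, 6.23 and 8.34 FPKM in MWA and 6.66, 8.88, 5.25, 5.77 and 5.78 FPKM in MWA+2DG, a log2 fold change of -0.24 ± 0.14 (SE; exact p = 0.119). With the replicate set as a term in limma its SE was 0.10 and its P 0.0333 before adjustment over all genes and 0.839 after it. Ndufa11, a membrane-arm subunit, was at 35.0, 34.5, 33.6, 31.4 and 50.8 FPKM in MWA and 30.1, 28.5, 35.2, 35.1 and 27.8 FPKM in MWA+2DG (-0.22 ± 0.13). Ndufb8, also of the membrane arm, was at 18.8, 18.8, 14.3, 13.2 and 26.5 FPKM in MWA and 16.5, 16.9, 15.6, 14.6 and 13.0 FPKM in MWA+2DG (-0.21 ± 0.16). The groups overlapped for all 3 genes. For Ndufa11 and Ndufb8 the highest library was MWA replicate 5, and without it their log2 fold changes were -0.10 and -0.07. At the other end, Ndufa3, a small membrane-arm subunit, was at 22.4 ± 6.07 FPKM in MWA and 22.2 ± 3.11 FPKM in MWA+2DG (log2 fold change 0.01 ± 0.17).

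Ndufaf8, which stabilizes the assembly factor Ndufaf5, was the most abundant of the 8 assembly factors at 13.5 FPKM. It was at 13.9, 14.2, 12.4, 14.2 and 18.03 FPKM in MWA and 11.98, 13.97, 12.5, 11.9 and 11.8 FPKM in MWA+2DG. The groups overlapped because MWA replicate 3 lay below MWA+2DG replicates 2 and 3, and MWA replicate 1 just below MWA+2DG replicate 2. Its log2 fold change was -0.20 ± 0.10 (SE), with an exact p of 0.0397. In limma its P was 0.0574 before adjustment over all genes and 0.995 after it. Without MWA replicate 5, its highest library, the log2 fold change was -0.13. Ndufaf2, a paralog of Ndufa12 that binds the complex during assembly, was the least abundant at 1.78 FPKM and had the highest fold change of the nuclear members, 0.03 ± 0.15 (SE), while that of Ndufa12 was the lowest. The other 6 assembly factors had log2 fold changes between -0.15 and -0.02, namely Ndufaf1, Ndufaf3, Ndufaf4, Ndufaf5, Ndufaf6 and Ndufaf7, the last a methyltransferase.

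A further symbol needed care. Of 57 Nduf and mt-Nd symbols in the tables, 4 were not protein-coding in GENCODE M21, and 1 of these, Ndufb1-ps, is given by RefSeq as a synonym of the protein-coding gene Ndufb1, a small membrane-arm accessory subunit. It was therefore outside the member count, and its values are given because of that synonym, after they had been seen. Ndufb1-ps was at 19.996, 20.4, 18.5, 18.8 and 25.8 FPKM in MWA and 14.8, 19.2, 17.1, 15.5 and 15.7 FPKM in MWA+2DG. Of the 5 MWA+2DG libraries only replicate 2 reached into the MWA range. The log2 fold change was -0.31 ± 0.10 (SE; exact p = 0.0238), and limma gave P = 0.0120 before adjustment over all genes and 0.995 after it. Counting it as a member would make it the one member to pass the study's rule. Without MWA replicate 5, its highest library, the log2 fold change was -0.23 ± 0.08 (SE), which is inside the rule's limit of 0.25. Of the remaining 3 symbols, Ndufb4c and Ndufab1-ps had log2 fold changes of -0.12 and -0.05, and Ndufs6b, at 0.843 FPKM, was not tested.

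**Figure D2:**
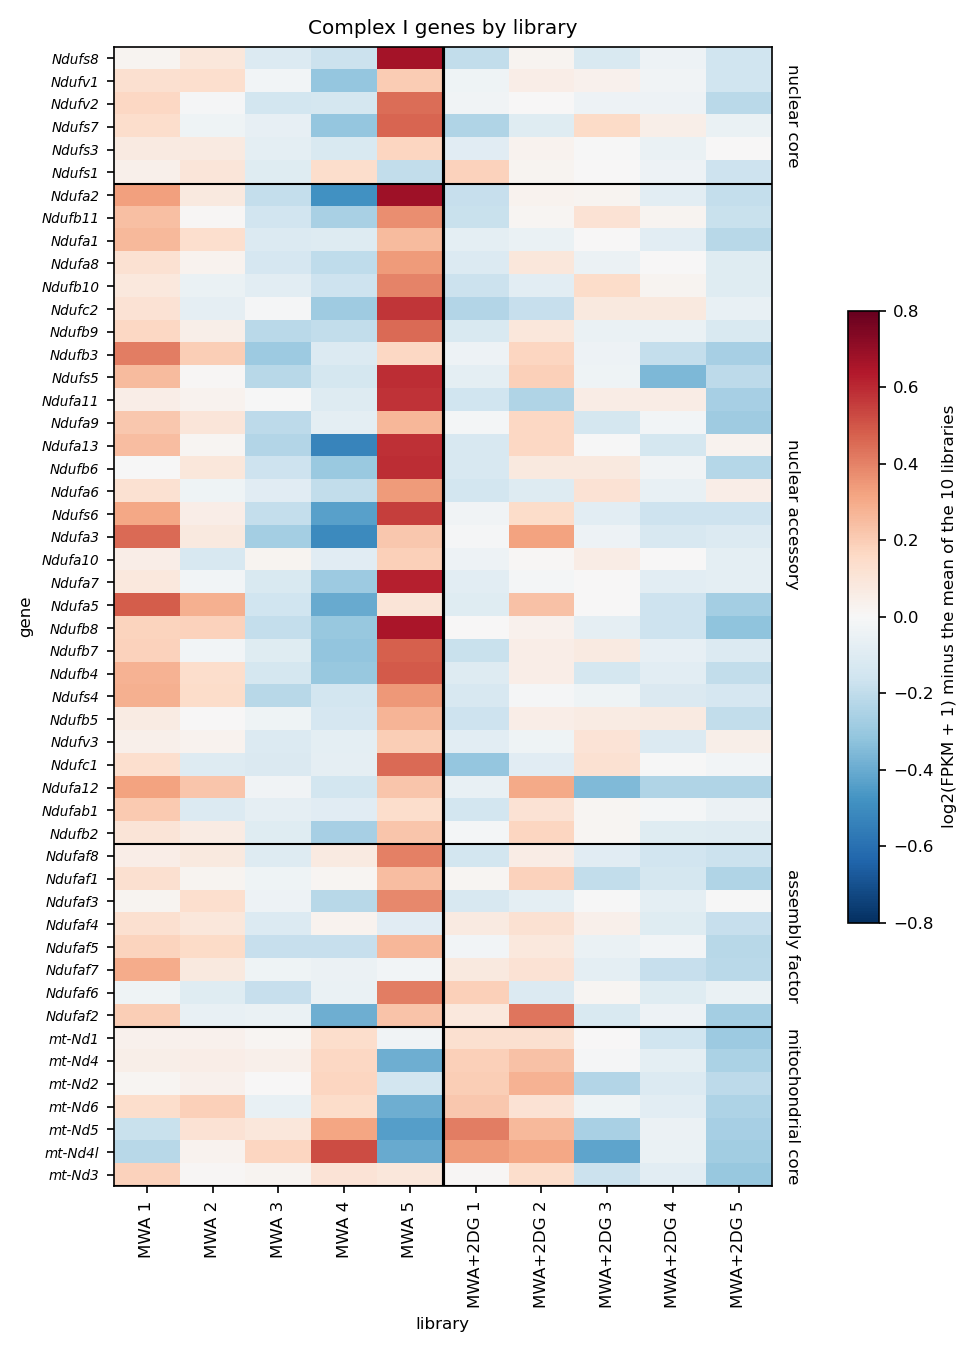
Log2(FPKM + 1) of complex I genes (rows, by class and falling mean level) minus its mean over the 10 libraries, in the 5 MWA and 5 MWA+2DG libraries (columns); red is above and blue below that mean. The red column of MWA replicate 5 and the blue one of MWA replicate 4 run through the nuclear genes, and in the mitochondrially encoded block their colors are mostly exchanged.

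From library to library, most nuclear complex I genes deviated in the same direction. Of 44 nuclear members, 34 had their highest value in MWA replicate 5 and 8 in MWA replicate 1, whereas 19 had their lowest in MWA replicate 4 and 12 in MWA+2DG replicate 5. Summed FPKM of the nuclear members was 1235, 1120, 979.9, 924.3 and 1445 in MWA replicates 1 to 5 and 996.9, 1110, 1086, 1035 and 965.0 in MWA+2DG replicates 1 to 5. The MWA sums, 1141 ± 209.1 FPKM (SD, n = 5), enclosed those of MWA+2DG, 1039 ± 60.3 FPKM. Both extremes of nuclear complex I expression were thus in the group without 2DG.

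Mitochondrially encoded subunits did not follow this order. Their summed FPKM was 5180, 5350, 5216, 5870 and 4421 in MWA and 5882, 5857, 4764, 4760 and 4255 in MWA+2DG. MWA replicate 5, highest in nuclear transcripts, was the lowest MWA library here, and MWA replicate 4, lowest in nuclear transcripts, was the highest. The ratio of mitochondrial to nuclear complex I transcripts therefore ran from 3.06 in MWA replicate 5 to 6.35 in MWA replicate 4, with 4.74 ± 1.23 (SD, n = 5) in MWA and 4.92 ± 0.658 in MWA+2DG.

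**Figure D3:**
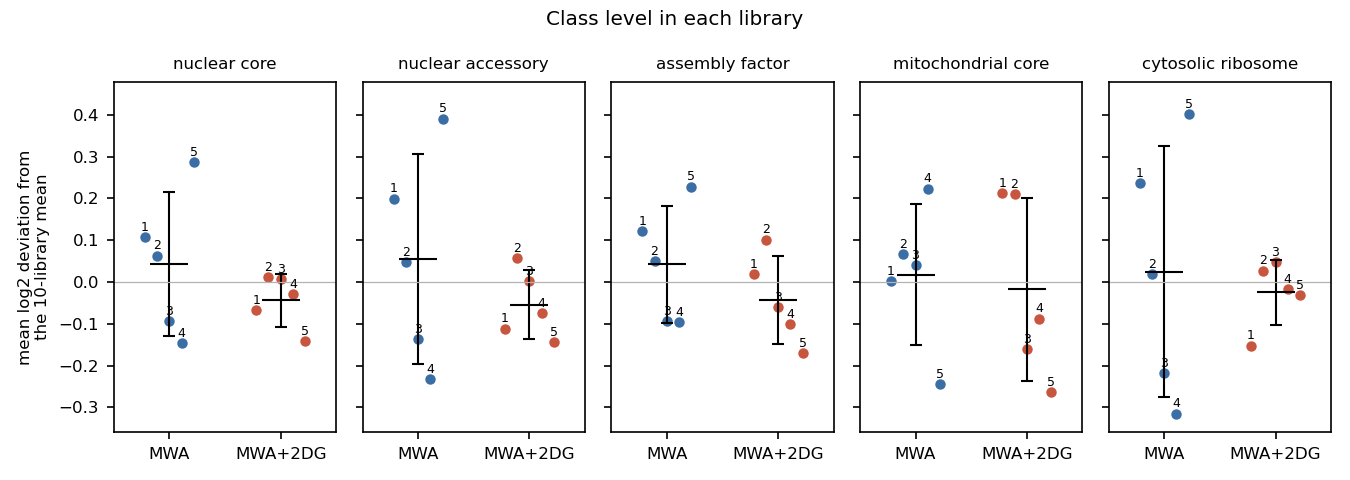
Mean log2 deviation of each class from its mean over the 10 libraries (y axis) in the libraries of each group (x axis; points numbered by replicate, bar and whiskers mean ± SD, n = 5). Nuclear core, accessory and assembly genes and the cytosolic ribosome share high values in MWA replicates 1 and 5 and low ones in MWA replicates 3 and 4, while mitochondrially encoded core genes are lowest in MWA+2DG replicate 5 and MWA replicate 5.

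Among the MWA libraries, transcripts outside complex I showed the same order. The 41 cytosolic ribosomal protein genes deviated from their 10-library mean by 0.24, 0.02, -0.22, -0.31 and 0.40 in MWA replicates 1 to 5 on the log2 scale, and the 29 accessory subunits by 0.20, 0.05, -0.14, -0.23 and 0.39. In MWA+2DG replicates 1 to 5 the ribosomal genes deviated by -0.15, 0.03, 0.05, -0.02 and -0.03 and the accessory subunits by -0.11, 0.06, 0.001, -0.08 and -0.14, so that there the order was not shared. Transcript length moved with the same library: against the other 9 libraries, MWA replicate 5 had a median log2 difference of 0.18 in the shortest and -0.27 in the longest of 4 equal bins of all genes by exonic length. In MWA replicate 4 these medians were -0.10 and 0.04. The 22 nuclear members below their own median exonic length of 1754 bases were higher in MWA replicate 5 by a median of 0.48, and the other 22 by 0.29, on the log2 scale. The part of transcript length in these differences was not tested. This look at length was added after the data had been seen.

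Other respiratory chain genes had fitted differences on the same side of 0. Log2 fold changes were below 0 in 4 of 4 tested genes of complex II, 9 of 9 of complex III, 10 of 10 of nuclear complex IV and 14 of 14 of complex V, with medians of -0.08, -0.11, -0.13 and -0.15, beside 47.4% of all genes below 0. Without MWA replicate 5 the counts were 3, 8, 10 and 12 and the medians -0.05, -0.05, -0.05 and -0.07. At an unadjusted P below 0.05, 0 genes of these 4 lists passed. Assembly factors without an Nduf symbol were below 0 in 10 of 12 genes (median -0.04), genes of mitochondrial transcription and translation in 9 of 17 (median -0.003), and markers of mitochondrial mass in 7 of 9 (median -0.06), again with 0 genes at P below 0.05. The cytosolic ribosome was below 0 in 34 of 41 genes (median -0.04), and in 4 of 41 without MWA replicate 5 (median 0.06). Ndufa4, of complex IV, was at 59.0 ± 8.60 FPKM in MWA and 53.1 ± 6.19 FPKM in MWA+2DG (log2 fold change -0.15 ± 0.11), and its paralog Ndufa4l2 at 0.774 ± 0.217 and 0.734 ± 0.189 FPKM.

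Markers of the cell types and of dividing cells were measured beside these genes. The 15 cell division genes had a median log2 fold change of -0.33 and 10 of them an unadjusted P below 0.05, with 0 at an adjusted p below 0.05. Over all genes tested, 1.63% were higher and 2.62% lower at that unadjusted P (limma). All 10 T cell markers were above 0 (median 0.16), with Cd4 (0.23) and Cd8a (0.28) at P below 0.05, and 6 of 7 plasma cell markers were below 0 (median -0.36), with Xbp1 (-0.39) and Mzb1 (-0.50) at P below 0.05. Of the 8 macrophage markers 6 were below 0, with Csf1r (-0.30) at P below 0.05. The 5 adipose markers tested were all above 0 (median 0.77) and the 10 liver markers tested all below 0 (median -0.34), with 0 at P below 0.05 in either list. The 8 B cell markers had a median of -0.07 and the 8 stromal and endothelial markers one of -0.01. The part of these cell types and tissues in the complex I values was not tested.

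Mitochondrially encoded subunits were by far the most abundant complex I transcripts. Mean levels over the 10 libraries fell from mt-Nd1 (1588 FPKM) through mt-Nd4 (874.8), mt-Nd2 (743.4), mt-Nd6 (712.5), mt-Nd5 (526.1) and mt-Nd4l (416.0) to mt-Nd3 (295.1 FPKM). These 7 genes encode the proton-pumping and quinone-side core of the membrane arm. The order of neighbors held in 10 of 10 libraries for mt-Nd1 over mt-Nd4, mt-Nd6 over mt-Nd5 and mt-Nd5 over mt-Nd4l. It held in 9 of 10 for mt-Nd4 over mt-Nd2 and for mt-Nd4l over mt-Nd3, but in only 7 of 10 for mt-Nd2 over mt-Nd6, which were not separable beyond their spread.

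**Figure D4:**
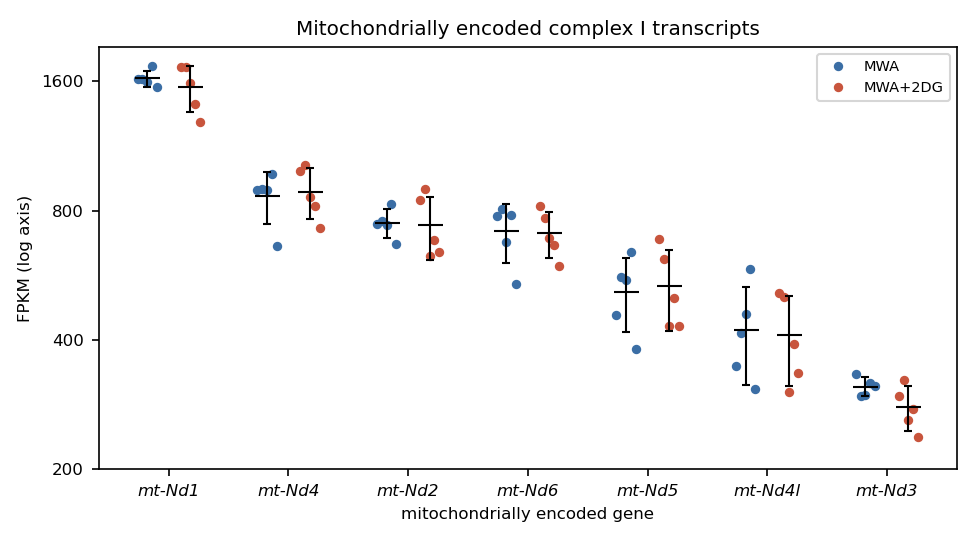
FPKM on a log axis (y) of the 7 mitochondrially encoded complex I genes (x), with each MWA and MWA+2DG library as a point and mean ± SD as bar and whiskers (n = 5 per group). The groups overlap for each gene, mt-Nd1 is highest near 1588 FPKM, and mt-Nd3 is lowest near 295.1 FPKM.

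Among them, mt-Nd3, which lies at the junction of the membrane and hydrophilic arms, had the lowest fold change. It was at 333.8, 295.3, 298.1, 316.9 and 313.0 FPKM in MWA and 295.9, 323.2, 260.3, 276.6 and 237.5 FPKM in MWA+2DG. The 3 lowest libraries were MWA+2DG replicates 3 to 5. The log2 fold change was -0.17 ± 0.09 (SE; exact p = 0.0952), with an interval from -0.36 to 0.03. The pumping subunit mt-Nd5 had the highest fold change, 0.04 ± 0.17, from 518.3 ± 101.5 FPKM in MWA to 534.0 ± 115.1 FPKM in MWA+2DG (SD, n = 5). For mt-Nd1 the means were 1626 ± 69.5 and 1549 ± 192.9 FPKM, for mt-Nd2 747.9 ± 57.8 and 738.9 ± 124.0 FPKM, and for mt-Nd4 864.9 ± 118.4 and 884.7 ± 121.4 FPKM. mt-Nd4l was at 422.3 ± 107.8 and 409.8 ± 97.0 FPKM, and mt-Nd6, the subunit encoded on the opposite strand, at 716.5 ± 110.8 and 708.4 ± 87.8 FPKM. In none of these 5 genes did the means differ by more than the larger of the SDs. For the 6 other mitochondrially encoded messenger RNAs, of complexes III to V, the median log2 fold change was 0.005.

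The replicate sets named above went opposite ways in this class. Within replicates 1 and 2 the median log2 fold change of the mitochondrially encoded subunits was 0.16, and within replicates 3 to 5 it was -0.19. All 7 were lower in replicates 3 to 5 than in replicates 1 and 2, by a median of 0.22 on the log2 scale. At an adjusted p below 0.05 (limma) 0 of them passed, compared to 488 of 13334 genes tested. For the accessory subunits the same medians were -0.14 and -0.06.

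Some of these genes share bases with a neighbor. The end of mt-Nd4l overlaps the start of mt-Nd4 by 7 bases on one strand, and mt-Nd5 and mt-Nd6 meet tail to tail over 14 bases on opposite strands. The stretches are shown because a fragment lying there belongs to both genes, and capitals mark the shared bases (GENCODE M21 transcripts, GRCm38, chrM:10147-10173 and chrM:10167-10193, + strand; chrM:13532-13565, + strand; chrM:13552-13585, - strand).
mt-Nd4l end: caaaatctcaacctactacaATGCTAA
mt-Nd4 start: ATGCTAAaaattattcttccctcacta
mt-Nd5 end: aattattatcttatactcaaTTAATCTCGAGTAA
mt-Nd6 end: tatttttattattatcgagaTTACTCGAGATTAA
In the first pair the start codon of mt-Nd4 lies inside the last codons of mt-Nd4l. The library protocol keeps strand, but the sources used here do not give whether the quantification used it. mt-Nd5 and mt-Nd6 were therefore uncertain over those 14 bases. If strand was not used, fragments from the other strand could count for any part of mt-Nd6. Its level, rank and fold change were uncertain to that extent, which was not tested.

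A further uncertainty came from near-identical pseudogenes. Transcripts of the members were aligned to all GENCODE M21 transcripts, and 12 members had at least 1 pseudogene with 95% identity or more over 200 bases or more on the same strand. The mt-Nd4l coding sequence matched Gm10222 on chromosome 1 over 294 bases with 0 differences, and mt-Nd3 matched Gm28438, also on chromosome 1, over 345 bases with 1 difference. Ndufa12 matched the processed pseudogene Gm15920 on chromosome 5 over 402 bases with 2 differences. Coding stretches of each pair are printed because so few bases tell the gene from the copy (GRCm38; capitals mark bases that differ; mt-Nd3 chrM:9459-9489 and Gm28438 chr1:24613089-24613119, the latter on the - strand; mt-Nd4l chrM:9877-9933 and Gm10222 chr1:24612644-24612700, the latter on the - strand; Ndufa12 chr10:94199970-94200026 and Gm15920 chr5:130188465-130188521).
mt-Nd3: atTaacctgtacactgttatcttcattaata
Gm28438: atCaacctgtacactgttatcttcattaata
mt-Nd4l: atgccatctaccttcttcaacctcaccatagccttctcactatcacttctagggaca
Gm10222: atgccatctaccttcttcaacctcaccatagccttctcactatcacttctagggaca
Ndufa12: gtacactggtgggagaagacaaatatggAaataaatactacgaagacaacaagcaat
Gm15920: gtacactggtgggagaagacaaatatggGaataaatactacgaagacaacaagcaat

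The deposited values divided between gene and copy. mt-Nd4l and Gm10222 had means of 416.0 and 421.7 FPKM, and mt-Nd4l held between 49.4% and 49.8% of their sum in each library. mt-Nd3 held between 48.0% and 49.6% of its sum with Gm28438, which was at 309.2 FPKM. mt-Nd4 was at 874.8 FPKM beside 508.7 FPKM for Gm28439, which matches 876 of its bases with 100% identity. The gene share was thus near even for mt-Nd3 and mt-Nd4l and stayed nearly constant between libraries.

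Ndufa12 was the extreme case, with 7.11 FPKM for the gene and 57.1 FPKM for Gm15920, so that the gene held only between 8.57% and 12.8% of the sum. Gm15920 was at 61.2, 57.9, 49.0, 49.9 and 79.6 FPKM in MWA and 54.1, 61.9, 56.1, 51.5 and 50.3 FPKM in MWA+2DG. Its highest library was MWA replicate 5, as for most nuclear members, whereas the highest for Ndufa12 itself was MWA replicate 1. With gene and copy summed, the log2 fold change was -0.12 (exact p = 0.460) in place of -0.24 for Ndufa12 alone. How fragments shared by both were divided is not known, and its part in the value of Ndufa12 was not tested. Gm15920 spans 402 bases and Ndufa12 1569 exonic bases, so the sum is not a level of one transcript.

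**Figure D5:**
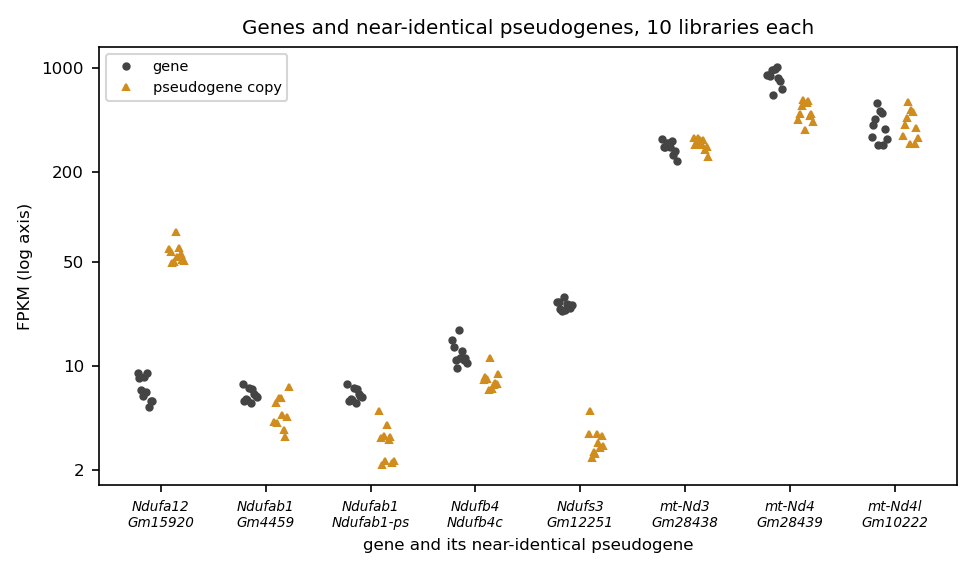
FPKM on a log axis (y) of members and their near-identical pseudogenes (x), each point 1 of the 10 libraries, for the 8 pairs in which the copy exceeded 10% of the gene. Gm15920 lies above Ndufa12 in each library, and Gm10222 and Gm28438 lie level with mt-Nd4l and mt-Nd3.

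For the other members the sums changed less. Summing moved mt-Nd3 from -0.17 to -0.16 on the log2 scale (exact p = 0.0635), mt-Nd4 from 0.03 to 0.04 and mt-Nd4l from -0.040 to -0.037. For mt-Nd3 and mt-Nd4l the gene share was nearly constant between libraries. Their sums could therefore hardly give another fold change and are no check on it. Ndufb4, with Ndufb4c at 8.10 FPKM beside 12.3 FPKM for the gene, went from -0.19 to -0.17. Ndufab1, the mitochondrial acyl carrier protein, held 44.2% of its sum with Gm4459 and Ndufab1-ps and went from -0.03 to -0.08. Ndufs3 held 89.0% of its sum with Gm12251 and stayed at -0.04 (-0.05 alone). In Ndufb11, Ndufs5, Ndufs6, mt-Nd2 and mt-Nd5 the gene held between 96.6% and 100% of the sum. With copies included, mt-Nd4l (837.7 FPKM) stood above mt-Nd2 (744.0 FPKM) and mt-Nd6 (712.5 FPKM), and mt-Nd3 (604.3 FPKM) above mt-Nd5 (526.1 FPKM). The order of the mitochondrial transcripts given above thus held only for the values as deposited. How fragments shared by gene and copy were counted is not known, so these sums may count some of them repeatedly.

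Promoters of some nuclear members held short motifs that the choice of members did not use, although most held none of the 3 searched. RefSeq promoter windows (GRCm38.p6, 250 bases before to 50 after the start) were at hand for 39 of the 44 nuclear members. The 8-base motif AAGATGGC, the core bound by YY1, a factor linked to nuclear genes of respiration, was present on either strand in 8 of 39 members (20.5%), compared to 3.19% of 27025 genes. GCATGCGC, a core bound by NRF1, another such factor, was present in 5 of 39 (12.8%) compared to 3.05%. CCGGAAGT, bound by ETS factors, was present in 1 of 39 (2.56%), Ndufs3, compared to 4.31%. The 27025 genes were not limited to protein-coding or expressed genes, whereas the 39 members are all protein-coding, so the shares compare unlike sets. The first of these motifs was on the gene strand in all 8 members, within 10 to 38 bases after the start, and in 7 of the 8 its ATG was the annotated start codon, so that coding sequence contributes to this match. Windows of 30 bases are shown for 5 of these members and for the 4 of the NRF1 type that are nearest a transcript start, with the motif in capitals, because they show the motif and its setting (Ndufc1 chr3:51408915-51408944, Ndufa9 chr6:126849097-126849126, Ndufs4 chr13:114388045-114388074, Ndufs6 chr13:73328433-73328462, Ndufb8 chr19:44555393-44555422, Ndufa8 chr2:36049328-36049357 and Ndufa6 chr15:82354356-82354385 on the - strand; Ndufaf5 chr2:140170653-140170682 and Ndufa11 chr17:56717693-56717722 on the + strand).
Ndufc1: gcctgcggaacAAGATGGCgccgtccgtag
Ndufa9: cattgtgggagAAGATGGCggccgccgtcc
Ndufs4: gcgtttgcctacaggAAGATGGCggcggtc
Ndufs6: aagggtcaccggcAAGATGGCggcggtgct
Ndufb8: tgaaccgcggagaaggtgAAGATGGCtgcc
Ndufa8: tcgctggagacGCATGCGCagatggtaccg
Ndufaf5: gtcccgttggcGCATGCGCctaatagaaac
Ndufa6: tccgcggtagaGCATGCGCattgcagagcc
Ndufa11: ctgcactgcgcGCATGCGCgcacgccttgt

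Fold changes were also set beside the motifs. The median log2 fold change was -0.12 in the 8 members with AAGATGGC and -0.09 in the other 31, and -0.06 in the 5 members with GCATGCGC and -0.11 in the other 34. A motif match describes the letters only, and binding was not measured here.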

How the data were processed

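RNA-seq was done on 10 TDLNs, 5 per group, from poly(A) RNA with a stranded dUTP protocol and UMI adapters. Per the study's methods, reads were filtered with fastp, mapped with HISAT2 and assembled with StringTie. The submitters' processing notes name cutadapt 1.9, HISAT2 2.0.4, UMI-tools, StringTie 1.3.4d and mm9. The authors deposited 1 FPKM table per mouse, already divided by transcript length and mapped fragments, so read depth is unknown. The sources used here do not give whether UMIs were used.

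Identifiers were matched to symbols (33541 of 33643), and gene types were taken from GENCODE M21, whose build differs from mm9, so gene coordinates are given only for printed sequences. The 13334 genes whose mean reached 1 FPKM were fitted without covariates in limma 3.58.1 (R 4.3.3), on log2(FPKM + 1), with Benjamini-Hochberg adjustment over all of them. A fold change on this scale understates that of low genes. The fit was tested on simulated data. Copies were found with BLAST+ 2.17.0. P-values measure the spread between these mice.

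Members and lists were chosen with earlier results of these data known. Named were the core subunits, the 3 highest and 3 lowest fold changes among accessory subunits and assembly factors, those at P below 0.05, the highest and lowest level of each class, Ndufa4 and Ndufa4l2. The values of 1 member are not reported here. Alternatives covered pseudocount, filter, scaling, limma-trend, replicate block, replicate set and single libraries, and, added after the data were seen, sums with pseudogenes and replicate sets alone.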

Additional observations from a re-analysis of the deposited data

Results flagged for a closer look

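Among 56 groups of 5 libraries examined (24 named members and 4 class sums, in each group), 6 held a library set far apart from the other 4 (Dixon's test), where chance flags about 1 in 20 groups. MWA replicate 5 was that library in 4 of the 6, with Ndufa11 at 50.8 FPKM, Ndufs8 at 65.65 FPKM and Ndufa4l2 at 1.15 FPKM, each the highest of its group, and mt-Nd4 at 661.8 FPKM, the lowest. In MWA+2DG, Ndufa3 was at 27.6 FPKM in replicate 2, the highest, and Ndufv2 at 24.7 FPKM in replicate 5, the lowest.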

How the results depend on the processing

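No member reached an adjusted p below 0.05 under any alternative run, and the smallest adjusted p of a named member was 0.834. At an unadjusted P below 0.05, 1 member passed without the low-value filter (Ndufaf8), with median ratio scaling (mt-Nd3) and with the replicate set as a term (Ndufa12). With the replicate number as a replicate block 1 member passed (Ndufa12). Beside them, 587 of 32378 genes were higher and 671 lower without the filter. Of 13334 genes, 290 were higher and 409 lower with median ratio scaling, 321 and 438 with the set term, and 367 and 417 with the block. Samples of one number correlated with r between 0.0334 and 0.501, above the set minimum of 0.1 in 4 of 5 numbers but not for replicate 4, so they were not taken as pairs, although the replicate sets 1 to 2 and 3 to 5 do differ. The block changed no other call. Leaving out single libraries gave 0 to 4 members at P below 0.05. The 4 came without MWA+2DG replicate 2, where 172 of 13334 genes were higher and 346 lower at P below 0.05. The study's rule gave 0 to 1 member, beside 0.952% of all genes higher and 1.87% lower in the main fit. Below 0 were 27 to 43 nuclear and 2 to 7 mitochondrially encoded members, beside 41.4% to 52.9% of all genes. The fewest nuclear members came without MWA replicate 5. Mitochondrially encoded members below 0 numbered 2 with either rescaling to a fixed total (with or without mitochondrially encoded genes) and 1 with quantile normalization. Of 465 alternative values for 23 named genes, 416 kept their direction and 49, in 13 genes, did not. The alternative filters, limma-trend, the block and the set term leave a gene's log2 fold change as it is in the main fit. Values from these settings are among the 416 and could not have turned. With either rescaling to a fixed total, the sign turned for Ndufb2 (0.047 and 0.051), Ndufs3 (0.015 and 0.019), Ndufv1 (0.0084 and 0.012), mt-Nd2 (0.034 and 0.037), mt-Nd4l (0.024 and 0.028) and mt-Nd6 (0.054 and 0.057). With quantile normalization it turned for Ndufs1 (-0.0066), mt-Nd1 (0.024), mt-Nd2 (0.052), mt-Nd4l (0.035) and mt-Nd6 (0.032). Leaving out single libraries gave log2 fold changes from -0.11 to 0.13 for Ndufa3, -0.072 to 0.10 for Ndufaf2, -0.079 to 0.044 for Ndufb2, -0.044 to 0.046 for Ndufs1, -0.17 to 0.03 for Ndufs7, -0.10 to 0.025 for mt-Nd2, -0.060 to 0.10 for mt-Nd4, -0.15 to 0.086 for mt-Nd4l, -0.066 to 0.12 for mt-Nd5 and -0.11 to 0.050 for mt-Nd6. The cause of these turns was not tested. Class medians moved by less than the SD between libraries in all alternatives run. That SD was larger than each class median in the main fit, so this does not show the medians to be stable. The accessory median went from -0.11 to -0.001 without MWA replicate 5. The mitochondrially encoded one was 0.16 within replicates 1 and 2 and -0.19 within replicates 3 to 5. Read depth is unknown, so counting error could not be given.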

Other observations

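The transfer RNA genes that lie between mt-Nd4 and mt-Nd5 separated the libraries by replicate number in both groups, although their neighbors did not. mt-Th was between 0.851 and 1.34 FPKM in replicates 1 and 2 and between 17.9 and 32.0 FPKM in replicates 3 to 5. mt-Ts2 was between 0.755 and 1.83 FPKM in the first set and between 19.5 and 32.8 FPKM in the second, and mt-Tl2 between 0.773 and 1.95 and between 22.2 and 35.4 FPKM. mt-Nd4, upstream of them, was between 895.7 and 1022 FPKM in replicates 1 and 2 and between 661.8 and 973.4 FPKM in replicates 3 to 5, and mt-Nd5, downstream, between 456.9 and 688.1 and between 380.0 and 642.5 FPKM. mt-Tg, before mt-Nd3, and mt-Tk, before mt-Atp8, were also lower in replicates 1 and 2 (at most 0.397 and 1.82 FPKM) than in replicates 3 to 5 (at least 1.24 and 3.49 FPKM), as was mt-Tw, after mt-Nd2 (at most 6.86 and at least 7.54 FPKM). Poly(A) selection does not target transfer RNA, and these values follow the same split as the liver transcripts, which both groups share. Other mitochondrial transcripts separated the sets the opposite way. mt-Ts1 was between 368.8 and 484.9 FPKM in replicates 1 and 2 and between 226.7 and 292.8 FPKM in replicates 3 to 5, and mt-Tp between 78.5 and 98.3 and between 54.7 and 64.0 FPKM. The messenger RNAs mt-Co2, mt-Atp6 and mt-Cytb were also higher in replicates 1 and 2, with at least 2066, 1833 and 1760 FPKM there and at most 1971, 1802 and 1641 FPKM in replicates 3 to 5. The split was noticed in the data, and its cause was not tested.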
